A study of Homo sapiens with 6 samples.

Results

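The genes described here are 10 RNA-binding proteins that set the splicing of PKM and of epithelial transcript isoforms. They were chosen by name: PTBP1, PTBP2 and PTBP3, HNRNPA1 and HNRNPA2B1, SRSF1 and SRSF3, RBM4, and ESRP1 and ESRP2. They are 10 of the 28008 genes in the table of read counts, and all 10 were among the 14292 genes with enough reads to be tested. The cells analysed by RNA-Seq were DU-145-DR/tet-MUC1shRNA cells, which derive from the human prostate cancer line DU-145 by selection in docetaxel for 24 weeks and carry a doxycycline-inducible hairpin against MUC1. The DOX-negative group holds 3 libraries from cells kept in 0.1% DMSO as the vehicle, and the DOX-positive group holds 3 from cells treated with DOX at 500 ng/ml, both for 7 days. The silencing rests on 1 hairpin, and DOX-treated cells with a control hairpin were not analysed here, so MUC1 silencing and exposure to DOX cannot be told apart. The labels name the hairpin only for the DOX-positive libraries. That the DOX-negative cells carry it too is taken from the study and the sample titles.

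The PKM gene makes 2 forms of pyruvate kinase from a pair of mutually exclusive exons. PTBP1, hnRNPA1 and hnRNPA2B1 bind beside the PKM1 exon and repress it, SRSF3 promotes the PKM2 exon that is typical of proliferating cells, and RBM4 favours PKM1. ESRP1 and ESRP2 are splicing factors of epithelial cells that set the epithelial isoforms of CD44, FGFR2, CTNND1 and ENAH, and they are known to be lost when cells take on a mesenchymal state, in which ZEB1 and ZEB2 repress ESRP1. The counts used here are per gene, so they give the amount of each regulator and of each target transcript and do not give the use of any exon.

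Totals ranged from 15092691 to 23243713 counts per library. Levels are given as CPM, which are counts scaled to the TMM-adjusted size of the library. The detection floor was set at 3 counts, or 0.129 to 0.199 CPM of the library total. For MUC1, the target of the hairpin, 387, 484 and 396 counts without DOX stood against 75, 74 and 66 with DOX, a log2 fold change of -2.52 (SE 0.146, adjusted p 4.47e-11). Adjusted p-values for counts come from edgeR's quasi-likelihood F test with Benjamini-Hochberg adjustment. All fold changes set DOX-positive against DOX-negative libraries. The line was checked against cell type markers. The luminal marker KLK3 had 0 counts in all 6 libraries, as did the neuroendocrine markers CHGA and INSM1, while keratins and VIM were present. Of the immune markers, CD3E had 0 counts and PTPRC at most 3, and none of the endothelial markers passed 17 counts. In bulk RNA, fewer cells of a type and less RNA per cell cannot be told apart.

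Of the 10 regulators, 4 passed an adjusted p of 0.05. ESRP1 and ESRP2 rose, and SRSF1 and HNRNPA2B1 fell. The same threshold was passed by 26.7% of all genes tested, 13.0% as higher and 13.7% as lower. The DOX-negative and DOX-positive groups did not overlap for the same 4 regulators, beside 39.8% of all genes tested. The median log2 fold change of the 10 was -0.054, beside -0.0034 over all genes tested. The 3 PTBP genes, HNRNPA1, SRSF3 and RBM4 did not pass the test. The ESRP2, SRSF1 and HNRNPA2B1 changes were smaller than 1.5-fold, and that of ESRP1 was the only one of the 10 above 2-fold.

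**Figure D1:**
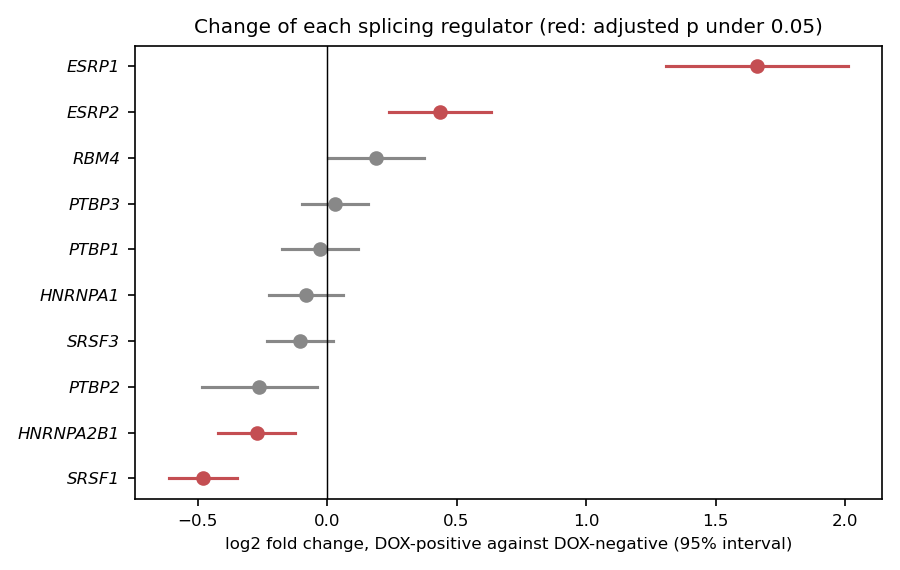
Log2 fold change of each of the 10 regulators, DOX-positive against DOX-negative, with its 95% interval from the edgeR fit. ESRP1 stands apart at 1.66, ESRP2 is at 0.44, SRSF1 at -0.48 and HNRNPA2B1 at -0.27, while the other regulators lie between -0.26 and 0.19.

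ESRP1 had the largest change of the 10 genes. DOX-negative replicates 1 to 3 held 166, 148 and 149 of its counts, and DOX-positive replicates 1 to 3 held 465, 666 and 313. These were 9.14, 7.57 and 7.41 CPM against 20.3, 34.8 and 21.0 CPM. Every DOX-positive library was above every DOX-negative one, with DOX-positive replicate 2 well above the other two. The mean rose from 8.04 ± 0.954 to 25.4 ± 8.17 CPM (SD, n = 3 each). This was a log2 fold change of 1.66 (SE 0.169), or 3.16-fold with a 95% interval of 2.48 to 4.03, at an adjusted p of 1.80e-07 by edgeR. Without DOX-positive replicate 2 the log2 fold change was 1.36, at an adjusted p of 2.18e-08.

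ESRP2, the paralog of ESRP1 with an overlapping set of targets, rose by less. It lies at chr16:68229111-68238102 (GRCh38, minus strand). Its level was 19.7, 20.6 and 20.4 CPM in the DOX-negative libraries, against 26.5, 28.6 and 27.0 CPM in the DOX-positive ones. The groups did not overlap, and the spread within each was narrow, at 20.2 ± 0.495 against 27.4 ± 1.07 CPM (SD, n = 3 each). The log2 fold change was 0.44 (SE 0.0943), or 1.35-fold with a 95% interval of 1.18 to 1.55, at an adjusted p of 0.00144 by edgeR. On the deposited TPM scale the change of ESRP2 was 0.032 on the log2(TPM + 1) scale, where it did not pass (limma adjusted p 0.948). On that scale the median over all genes shifted by -0.32, and 44 of the 51 genes that edgeR called among those refitted (MUC1, regulators, markers, targets and listed genes) were not called in the same direction.

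**Figure D2:**
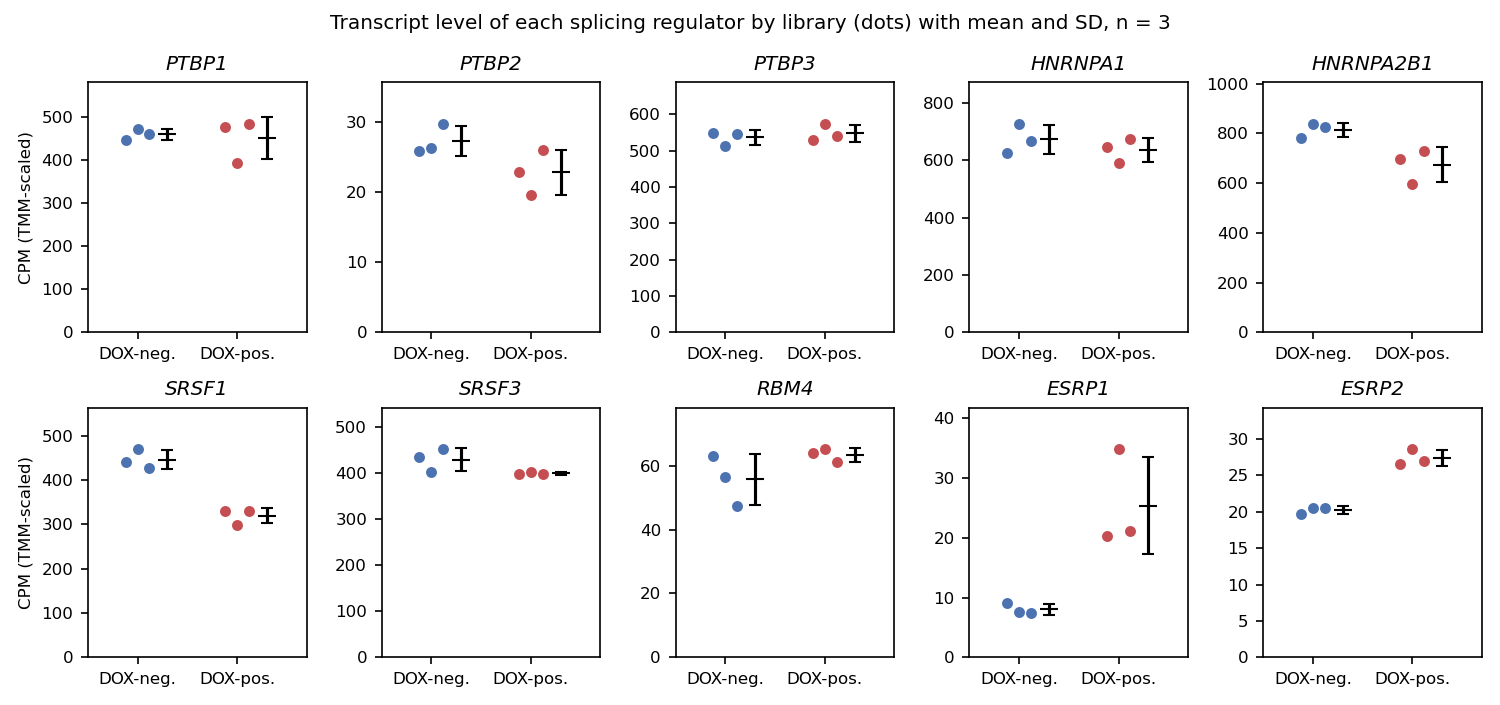
Level of each regulator in CPM in the 6 libraries, DOX-negative in blue and DOX-positive in red, with the mean and SD of each group of 3 as a black mark. The ESRP1, ESRP2, SRSF1 and HNRNPA2B1 points separate by group, and the points of the other regulators overlap.

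Epithelial markers were examined beside the 2 ESRP genes. Of 6 epithelial markers, 5 rose and 0 fell, beside 13.0% of all genes tested as higher and 13.7% as lower. Their summed level went from a range of 766 to 847 CPM over the DOX-negative libraries to 1455 to 1526 CPM over the DOX-positive libraries. EPCAM, an epithelial adhesion molecule, rose from 30.5 ± 1.14 to 82.1 ± 2.97 CPM (SD, n = 3 each), which on the log2 scale was 1.43. CDH1, which encodes E-cadherin, rose by 0.92, and the keratins KRT8, KRT18 and KRT19 rose by 0.84, 0.81 and 1.00 on the log2 scale. On the deposited log2(TPM + 1) scale the values for CDH1, KRT8, KRT18 and KRT19 were 0.49, 0.44, 0.41 and 0.61, and none of the 4 passed (limma adjusted p 0.329, 0.326, 0.353 and 0.194), while EPCAM did. On rescaled TPM these 4 calls were kept. CLDN4, a tight junction protein, did not pass (adjusted p 0.504 by edgeR). The mesenchymal intermediate filament gene VIM stood at 1004 ± 48.7 and 1028 ± 20.7 CPM (SD, n = 3 each; edgeR adjusted p 0.733), and CDH2 had 0 counts throughout. CD68 was the only immune marker with enough counts to be tested and rose from 101 ± 7.94 to 169 ± 10.5 CPM (SD, n = 3 each). This call was also lost on the deposited log2(TPM + 1) scale (limma adjusted p 0.407) and was kept on rescaled TPM. The part of these markers in the ESRP result was not tested.

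Among transcription factors named as regulators of these genes, 7 of 10 were tested, of which 2 rose (MYC and SNAI2) and 2 fell (ZEB1 and ZEB2). The called share was 57.1%, beside 26.7% of all genes tested. ZEB2, a repressor of epithelial genes, was at 9.74, 8.08 and 7.21 CPM in the DOX-negative libraries, against 1.57, 1.10 and 1.75 CPM in the DOX-positive ones. No library of one group came near the other, and the log2 fold change was -2.51 (SE 0.217, edgeR adjusted p 1.79e-08). ZEB1, its paralog, fell from 45.2 ± 1.95 to 35.3 ± 2.24 CPM (SD, n = 3 each), which on the log2 scale was -0.36 (SE 0.0841). MYC, which is known to drive transcription of PTBP1, HNRNPA1 and HNRNPA2B1, rose from 121.03 ± 5.56 to 188 ± 18.7 CPM (SD, n = 3 each), which on the log2 scale was 0.64 (edgeR adjusted p 1.02e-06). The study reported lower MYC protein by immunoblot, in lysates and in chromatin, when MUC1 was silenced in these cells. From RNA-Seq of these cells it also associated MUC1-C with a hallmark set of MYC target genes. The value here is the RNA of MYC itself. On the deposited log2(TPM + 1) scale MYC was at 0.23 and ZEB1 at -0.64, and neither passed (limma adjusted p 0.570 and 0.238), while ZEB2 did. Of those 3 genes that MYC is known to drive, PTBP1 and HNRNPA1 did not pass and HNRNPA2B1 fell. The part of MYC in these values was not tested. SNAI2 passed at an adjusted p of 0.0424 by edgeR with groups that overlapped. Its call was lost in 10 of 16 alternatives. These were the fits without DOX-negative replicate 2 or 3 or DOX-positive replicate 1 or 3 (adjusted p 0.0835 to 0.192), DESeq2 (0.0700), library totals (0.0634), thinned counts (0.0791), both deposited TPM scales (0.887 and 0.865) and rescaled TPM (0.0754). SNAI1 had 4.43 ± 0.66 and 3.11 ± 0.241 CPM (SD, n = 3 each) and did not pass (edgeR adjusted p 0.0721). TWIST1 had 0 counts in every library, and GRHL2, an activator of epithelial genes, had at most 3.

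**Figure D3:**
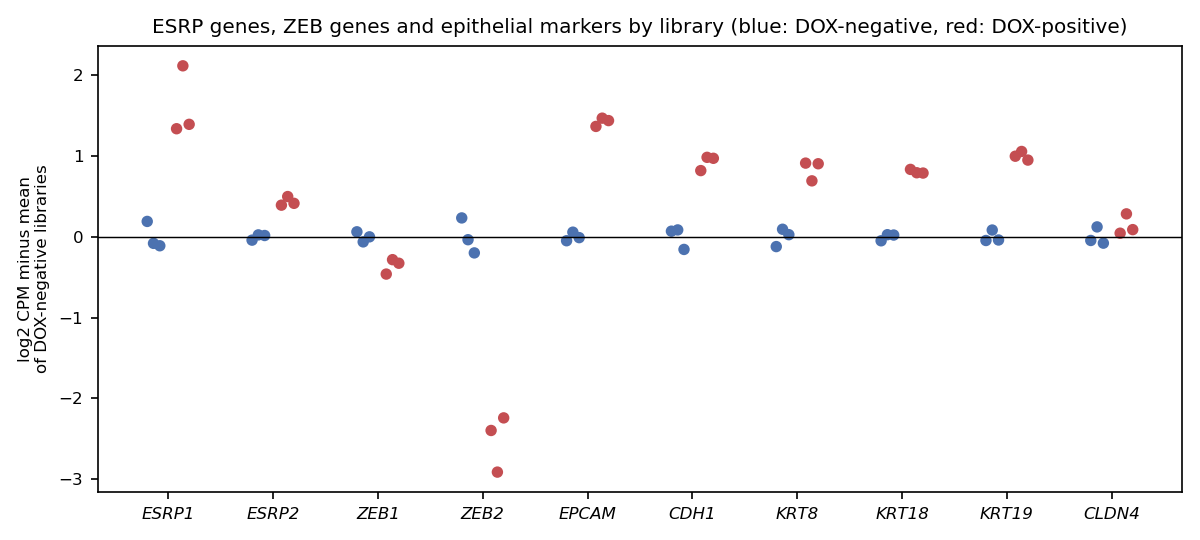
Log2 CPM of each library minus the mean of the DOX-negative libraries for the ESRP genes, the ZEB genes and 6 epithelial markers, DOX-negative in blue and DOX-positive in red. All 3 DOX-positive libraries lie above the DOX-negative ones for ESRP1, ESRP2, EPCAM, CDH1 and the keratins and below them for ZEB1 and ZEB2, while CLDN4 overlaps.

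Of the SR proteins, which bind exonic enhancers and recruit the splicing machinery, SRSF1 fell and SRSF3 did not pass. SRSF1, an SR protein with oncogenic activity whose known targets include BIN1, MKNK2, RPS6KB1 and MST1R, was at 440.2, 469 and 428 CPM in the DOX-negative libraries, against 331, 299.5 and 329 CPM in the DOX-positive ones. The lowest DOX-negative library lay well above the highest DOX-positive one. The log2 fold change was -0.48 (SE 0.0634), to 0.717 of the DOX-negative level, at an edgeR adjusted p of 6.92e-06. SRSF3 was at 435, 402 and 453 CPM without DOX, and at 398, 404 and 399 CPM with it. The groups overlapped by a single library, and the log2 difference was -0.10 with a 95% interval of -0.23 to 0.024 (edgeR adjusted p 0.228), which does not show that the level was the same. In GENCODE 29, SRSF1 lies at chr17:58003360-58007346 (GRCh38, minus strand), and 56.6% of its exonic bases are shared on the same strand with the clone-named gene AC015813.2. The count table lists no gene by such a name, and how the authors' counting treated these reads is not given in the sources used here.

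The heptamer ATCAGTA had been picked out earlier in a scan of 3′UTRs on these same data, so its values are a description. In the principal 3′UTR of GENCODE 29, 1209 of 12085 genes (10.0%) hold it. Their median log2 fold change was -0.11, beside 0.0016 for the 10876 without it. None of the 10 regulators holds it there (0 of 10). In longer or alternative 3′UTRs of protein-coding transcripts it occurs in SRSF1 (1 of 4 transcripts), PTBP2 (1 of 4) and PTBP3 (3 of 5). ZEB1 (3 of 5) and ZEB2 (14 of 22) also hold it, with 2 copies in the principal 3′UTR of each. The sites of SRSF1, PTBP2 and PTBP3 and 2 of the 3 sites found in each ZEB gene are shown because SRSF1, ZEB1 and ZEB2 fell while PTBP2 and PTBP3 did not pass, with the heptamer in capitals and 11 bases on each side, as DNA letters in the sense of the transcript from GENCODE 29 on GRCh38. The SRSF1 site lies at chr17:58003589-58003617 (minus strand), the PTBP2 site at chr1:96819006-96819034 (plus), the PTBP3 site at chr9:112219712-112219740 (minus), the ZEB1 sites shown at chr10:31527620-31527648 and chr10:31528494-31528522 (plus), and the ZEB2 sites shown at chr2:144389044-144389072 and chr2:144388981-144389009 (minus).
SRSF1: taaaatagtaaATCAGTAagtcacttcta
PTBP2: ttataatagaaATCAGTAtgattagtgtt
PTBP3: actaaagtagtATCAGTAttctggttttc
ZEB1 first site: tgttttatcttATCAGTAttatcactctt
ZEB1 second site: gatttttacctATCAGTAttattttattt
ZEB2 first site: cactaccatacATCAGTAtttttattatt
ZEB2 second site: cactacaatgcATCAGTAttatgattcct
The bases right after the heptamer are tt in the ZEB1, ZEB2 and PTBP3 sites shown, ag in the SRSF1 site and tg in the PTBP2 site. They are tt in the ZEB1 site not shown and gg in the ZEB2 site not shown. Which 3′UTR these cells use was not measured, and the part of the heptamer in any change was not tested.

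Of the 2 hnRNP A genes, HNRNPA2B1 (chr7:26173057-26201529 on GRCh38, minus strand) fell. It was at 780.1, 837 and 824 CPM in the DOX-negative libraries, against 698, 596 and 729 CPM in the DOX-positive ones. The groups did not overlap, and DOX-positive replicate 2 was the lowest. The log2 fold change was -0.27 (SE 0.0709), to 0.828 of the DOX-negative level, at an edgeR adjusted p of 0.00647. Leaving out DOX-positive replicate 2 gave -0.19 (edgeR adjusted p 0.0427). HNRNPA1 was at 624, 725 and 667 CPM without DOX, and at 645, 589 and 672 CPM with it. These ranges overlapped, and the log2 difference of -0.081 had a 95% interval of -0.22 to 0.062 (edgeR adjusted p 0.420). HNRNPA1 has many processed copies in the genome. Those in the count table held few reads, the largest being HNRNPA1P10 with 329 to 475 counts and HNRNPA1L2 with 308 to 443 counts, and neither passed the test.

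The PTBP genes, which bind pyrimidine tracts and mostly repress exons, did not pass. PTBP1, the form of most non-neuronal cells, was at 447, 473 and 462 CPM in the DOX-negative libraries, against 478, 395 and 484 CPM in the DOX-positive ones. The DOX-positive libraries held both the lowest and the 2 highest values. The log2 difference was -0.027 with a 95% interval of -0.17 to 0.12 (edgeR adjusted p 0.822), and without DOX-positive replicate 2 it was 0.061 (edgeR adjusted p 0.540). PTBP2, the neuronal form, was at 25.9, 26.3 and 29.8 CPM without DOX, and at 22.9, 19.7 and 26.1 CPM with it. Its groups overlapped by DOX-positive replicate 3 and its log2 difference was -0.26 with a 95% interval of -0.48 to -0.039, at an adjusted p of 0.0762 by edgeR. Without that library the adjusted p was 0.0303. PTBP3 was at 549, 514 and 547 CPM without DOX, and at 531, 573 and 540 CPM with it, a log2 difference of 0.030 with a 95% interval of -0.097 to 0.16 (edgeR adjusted p 0.767), and -0.36 on the deposited log2(TPM + 1) scale.

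RBM4, which opposes PTBP1 at PKM, was at 63.1, 56.5 and 47.4 CPM in the DOX-negative libraries, against 63.8, 65.1 and 61.0 CPM in the DOX-positive ones. The DOX-negative libraries spread the more widely, and replicate 1 of them fell within the DOX-positive range. The log2 difference was 0.19 with a 95% interval of 0.0032 to 0.37, and the edgeR adjusted p of 0.125 missed the threshold (-0.19 on the deposited log2(TPM + 1) scale). Without DOX-negative replicate 1 the adjusted p was 0.0401. In GENCODE 29, 24.2% of the exonic bases of RBM4 lie in the readthrough gene RBM14-RBM4, which had 0 counts in all 6 libraries. RBM4B, the close paralog, had between 163 and 229 counts and did not pass.

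Ratios of counts between partners within a library do not depend on how libraries are scaled. The ratio of ESRP1 to ESRP2 was 0.465, 0.368 and 0.363 without DOX and 0.764, 1.22 and 0.781 with DOX, a difference of 1.18 on the log2 scale. ESRP2 counts were above those of ESRP1 in all libraries but DOX-positive replicate 2. The ratio of PTBP1 to PTBP2 was 17.3, 17.96 and 15.5 without DOX and 20.9, 20.05 and 18.6 with DOX, a log2 difference of 0.23. For HNRNPA2B1 to HNRNPA1 the ratios were 1.25, 1.15 and 1.24 without DOX and 1.08, 1.01 and 1.08 with DOX, a log2 difference of -0.20. SRSF1 was at 1.01, 1.17 and 0.946 times the counts of SRSF3 without DOX and at 0.832, 0.742 and 0.825 times with DOX, a log2 difference of -0.38. The groups did not overlap for any of the 4 pairs. A 2-sided exact permutation test gave p = 0.1 for each (adjusted over the 4 pairs, 0.1), which is the smallest p that 20 splits of 6 libraries allow.

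**Figure D4:**
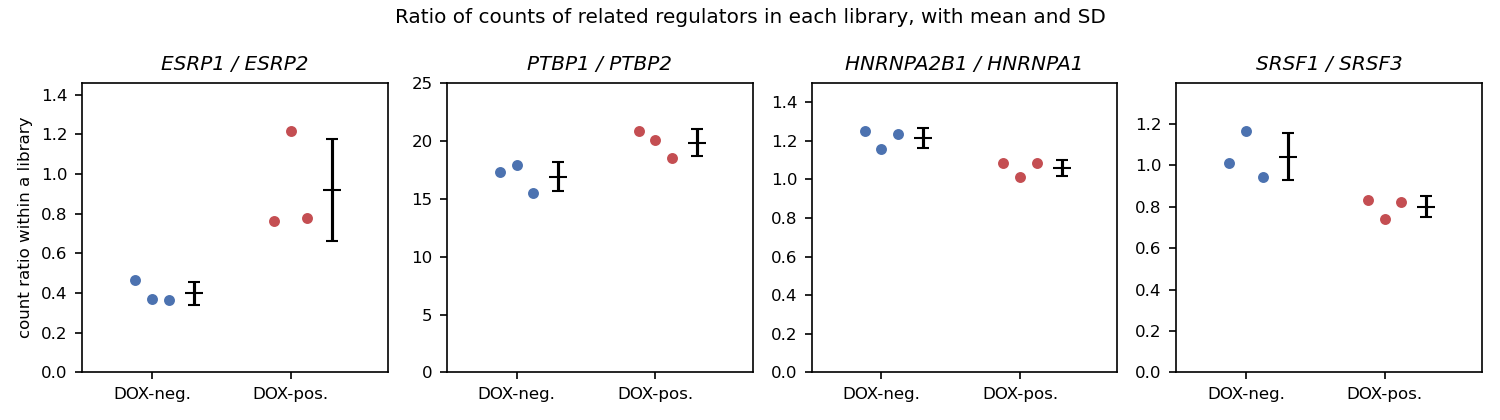
Ratio of counts within each library for 4 pairs of related regulators, DOX-negative in blue and DOX-positive in red, on linear axes that start at 0, with the mean and SD of each group of 3 in black. The groups do not overlap in any pair, and the ESRP1 to ESRP2 ratio moves the most, from at most 0.465 to at least 0.764.

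Levels can be compared between genes only per transcript length. On the TPM scale, rescaled without 5 short noncoding RNAs, HNRNPA1 was the most abundant of the 10 at 929 ± 83.1 TPM without DOX and 863 ± 57.1 TPM with DOX (SD, n = 3 each). HNRNPA2B1 followed at 613 ± 27.5 TPM, PTBP1 at 396 ± 16.6, SRSF3 at 333 ± 12.5, SRSF1 at 214 ± 15.3 and PTBP3 at 174 ± 4.77 TPM, all without DOX. RBM4 at 36.4 ± 5.80 TPM, PTBP2 at 19.6 ± 1.05, ESRP2 at 13.9 ± 0.464 and ESRP1 at 5.88 ± 0.758 TPM made up the lower end. In the DOX-negative libraries no neighbours in this order overlapped. With DOX, ESRP1 reached 18.2 ± 6.02 TPM beside 18.5 ± 0.913 TPM for ESRP2 and 16.2 ± 2.29 TPM for PTBP2, and neighbours among these overlapped. SRSF1 at 151 ± 7.46 TPM came below PTBP3 at 174 ± 8.89 TPM. As a share of the summed TPM of the ESRP pair, ESRP1 went from 29.6 ± 2.95% to 48.8 ± 6.55% (SD, n = 3 each). PTBP1 held 67.2 ± 1.33% of the PTBP sum without DOX and 66.6 ± 3.16% with DOX.

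PKM itself, a transcript that several of these regulators are known to act on, was at 1964, 2147 and 2089 CPM in the DOX-negative libraries, against 2206, 1749 and 2070.4 CPM in the DOX-positive ones. The DOX-positive libraries held both the highest and the lowest value, and the log2 difference was -0.041 with a 95% interval of -0.20 to 0.12 (edgeR adjusted p 0.738). Without DOX-positive replicate 2 it was 0.048. The study reported lower expression of glycolytic enzymes, PKM2 among them, when MUC1 was silenced in DU-145-DR cells. Its evidence included qRT-PCR of transcripts after 7 days of DOX, a further hairpin and immunoblots of protein. The count here is of the whole gene, and how the PKM1 and PKM2 exons were used cannot be read from it.

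Of 17 transcripts known to be spliced by these regulators, PKM included, 5 rose and 2 fell by gene-level count. The median log2 fold change was 0.12, and 7 of 17 called stands beside 26.7% of all genes. CD44, whose variable exons are included by ESRP1, rose from 322 ± 6.73 to 389 ± 9.31 CPM (SD, n = 3 each), which on the log2 scale was 0.27 (edgeR adjusted p 0.00144), but -0.12 on the deposited log2(TPM + 1) scale. ITGA6, an integrin with an epithelial isoform, rose by 0.60, from 170 ± 3.42 to 257 ± 17.4 CPM (SD, n = 3 each). Among targets of SRSF1, MKNK2 rose by 0.88 on the log2 scale, MST1R by 0.34 and RPS6KB1 by 0.20, of which MST1R and RPS6KB1 were at -0.048 and -0.18 on the deposited log2(TPM + 1) scale. BIN1 fell by 0.76. The MST1R call was lost without DOX-negative replicate 3 (adjusted p 0.0991), and that of RPS6KB1 without DOX-negative replicate 1 or 3 or DOX-positive replicate 2 or 3 (adjusted p between 0.0825 and 0.123). With the replicate number as a block, RPS6KB1 was at an adjusted p of 0.0778. RAC1 fell by 0.35. The ESRP targets FGFR2 and CTNND1 had few counts, at 1.60 ± 0.278 and 2.75 ± 0.546 CPM without DOX (SD, n = 3 each), and did not pass, nor did ENAH at 401 ± 12.3 and 448 ± 45.7 CPM (edgeR adjusted p 0.0884).

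The 5 lists of other splicing genes held 94 genes, and 86 were tested. Of these, 6 rose and 17 fell, or 26.7% called, equal to the 26.7% of all genes, at a median log2 fold change of -0.093. Among the other SR proteins, 2 of 12 rose and 3 fell. SRSF8 rose by 0.47 and SRSF6 by 0.27 (SRSF6 was at -0.12 on the deposited log2(TPM + 1) scale), while SRSF7 fell by 0.31, SRSF4 by 0.29 and SRSF10 by 0.27 on the log2 scale. Without DOX-negative replicate 1, SRSF4 was at an adjusted p of 0.0514. Of the 21 other hnRNPs tested, 0 rose and 4 fell, namely HNRNPA3 by 0.37, HNRNPC by 0.22, HNRNPUL1 by 0.22 and HNRNPD by 0.18. The HNRNPC call was lost without DOX-negative replicate 1 or 3 or DOX-positive replicate 1 or 3, at adjusted p-values between 0.0518 and 0.0699. That of HNRNPD was lost without DOX-negative replicate 2 or 3 or DOX-positive replicate 1 or 3, at adjusted p-values between 0.0665 and 0.137, and under a replicate block at 0.0821.

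**Figure D5:**
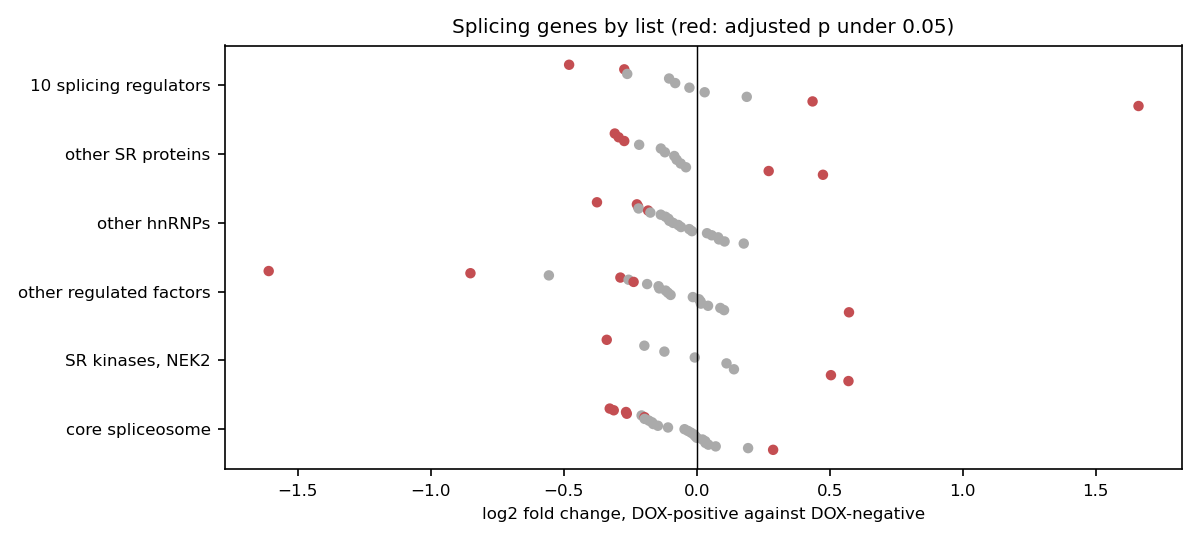
Log2 fold change of each gene tested in the 5 lists of other splicing genes and of the 10 regulators, 1 point per gene, in red where the adjusted p was under 0.05. Red points lie on both sides of 0, and the medians of the 5 splicing lists lie between -0.11 and 0.053.

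Among 20 other regulated splicing factors tested, 1 rose and 4 fell, or 25% called beside 26.7% of all genes tested. CELF2, which binds GU-rich intronic elements, rose by 0.57 from 239.8 ± 4.60 to 357 ± 8.19 CPM (SD, n = 3 each). RBM24, best known from muscle, fell by 0.85, KHDRBS1 (SAM68) by 0.29 and ELAVL1 (HuR) by 0.24. SRRM3, a factor for neuronal microexons, was at or below 26 counts and had a log2 fold change of -1.61. The ELAVL1 call was lost without DOX-negative replicate 3 or DOX-positive replicate 2 (adjusted p 0.0676 to 0.0714), and that of SRRM3 without replicate 1 of either group (adjusted p 0.0558 to 0.0565). Among SR protein kinases and PKM splicing cofactors, 2 of 8 rose and 1 fell, or 37.5% called beside the same 26.7%. CLK1 and CLK4, kinases that phosphorylate SR proteins in the nucleus, rose by 0.57 and 0.50, and PRPF4B fell by 0.34, while SRPK1 was at 233 ± 6.79 and 232 ± 10.2 CPM (SD, n = 3 each) and did not pass.

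In the core spliceosome, 1 of 25 genes tested rose and 5 fell, with a median of -0.046. The called share was 24%, beside 26.7% of all genes tested. SF1, which binds the branch point, rose by 0.29, but was at -0.11 on the deposited log2(TPM + 1) scale. Its call was kept on rescaled TPM. SNRNP200, the helicase that unwinds U4 from U6, fell by 0.33, and SNRPD2 and SNRPA fell by 0.31 and 0.27. SF3B4 and SNRNP70 were the other two, at log2 fold changes of -0.20 and -0.26. The calls of SNRPA, SF3B4 and SNRNP70 were each lost without DOX-negative replicate 3 or DOX-positive replicate 2. SNRPA was also lost without DOX-negative replicate 1, SF3B4 without DOX-positive replicate 3, and SNRNP70 without DOX-negative replicate 2 or DOX-positive replicate 3. Adjusted p-values in these fits lay between 0.0611 and 0.201. Under a replicate block SF3B4 was at an adjusted p of 0.0792 and SNRNP70 at 0.0583.

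The genes whose level moved most like those of ESRP1 and SRSF1 were taken by Pearson's r of log2 CPM over the 6 libraries among 9947 genes. For ESRP1 these were ACER2, ATF6 and ARIH1, with r of 0.999, 0.997 and 0.996. Like ESRP1, each of them was highest in DOX-positive replicate 2. For SRSF1 they were MTCL1, ZNF322 and GSR, with r of 0.999, 0.997 and 0.997, and each of them was lowest in that library. The 6 points fall into 2 groups and share their libraries, so these values are a description.

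Promoter windows from RefSeq (GRCh38.p14, 250 bases before to 50 after the start) were matched for 7 of the 10 regulators, with 8 promoters. The ZEB E-box CACCTG, read on both strands, was in 0 of these 8, beside 20.6% of 35116 promoters, and the MYC E-box CACGTG was in 0 of 8, beside 7.3%. These letters are not in these windows, and no more is drawn from it. ESRP1, ESRP2 and HNRNPA1 were not among the matched promoters.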

How the data were processed

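The authors made poly(A)-selected RNA-Seq libraries from triplicate cultures and deposited whole-number read counts for 28008 genes and TPM values for 25546 genes. STAR, DESeq2 and GRCh38 (hg38) are named in the submitters' processing notes; the counting step, its strand setting and the annotation are not given in the sources used here. The DOX state and number in each column name gave its sample, since the columns abbreviate the line differently from the titles. The count table holds 0 mitochondrially encoded genes. In the deposited TPM, RPPH1, RN7SK and the genes RN7SL1, RN7SL2 and RN7SL3 (5 short noncoding RNAs) took 34.4% to 64.4% of a library, so TPM was rescaled to its former total without them for levels between genes.

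The fit used edgeR 4.0.16 (R 4.3.3): filterByExpr (14292 genes), TMM factors, glmQLFit and glmQLFTest, 2-sided, with no term but the group, and a Benjamini-Hochberg adjusted p under 0.05 as the threshold. The SE of a log2 fold change is its size over the square root of F. The members and gene lists were chosen with earlier results of these data known. Genes named are MUC1, the members, their targets and transcription factors, and of each other list the 3 largest rises and falls among genes past the threshold that averaged 1 logCPM or more and had separate groups; HNRNPD, SRRM3, SF3B4 and SNRNP70 were named after their values were seen. Alternatives were RLE factors, library totals, DESeq2 1.42.0, no filter, a minimum of 10 counts per library, thinned counts, a replicate block, limma 3.58.1 on log2(TPM + 1) and log2(TPM + 0.1), each library left out and, added after seeing the data, rescaled TPM. The fits were tested on simulated data. Some genes are not reported here.

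Pairs of libraries within a group differed beyond sampling noise (chi-square per degree of freedom 3.78 to 20.2), so each counted as 1 replicate. Same-numbered libraries did not deviate together (r of -0.046, -0.12 and -0.032), so the numbers were not taken to pair them. The p-values measure the spread between triplicate cultures of 1 line. Intervals come from the same edgeR fit, so they include that spread as well as counting error. For the intervals and the floor of 3 counts, counting error is that of reads, since no molecular identifiers are stated.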

Additional observations from a re-analysis of the deposited data

How the results depend on the processing

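MUC1, the 10 regulators, PKM and the other genes whose change is given in numbers, 58 in all, were refitted under 16 alternatives (15 for SRRM3, which had under 10 counts in some libraries); other genes named were not. The 4 regulators called kept their direction in all 64 such fits and their call in all but 5: HNRNPA2B1 (limma adjusted p 0.155 and 0.160) and ESRP2 (0.948 and 0.938) on log2(TPM + 1) and log2(TPM + 0.1), and SRSF1 on the latter (0.0555). These 2 TPM scales called 443 and 408 genes against 3816, 2 and 1 regulators against 4, and 1 and 2 of the listed splicing genes against 23. Under them the median over all genes shifted by -0.32 and -0.39, and 6.77% and 7.11% of their calls were higher, against 48.8%; short noncoding RNAs take an uneven share of those TPM values. With library totals 39.3% of calls were higher. With rescaled TPM, 3097 genes, 4 regulators and 26 listed genes passed. On the TPM scales, with pseudocounts 1 and 0.1, the direction turned for PTBP3 (-0.36 in both), RBM4 (-0.19 and -0.20), CD44 (-0.12 in both), MST1R (-0.048 and -0.044), RPS6KB1 (-0.18 and -0.19), SRSF6 (-0.12 in both), SF1 (-0.11 in both) and ARIH1 (-0.091 and -0.093). PTBP3 was also at -0.0045 with library totals and at -0.0043 without DOX-positive replicate 2, where PTBP1 was at 0.061 and PKM at 0.048; leaving out each library gave -0.079 to 0.061 for PTBP1, -0.0043 to 0.053 for PTBP3 and -0.11 to 0.048 for PKM. Of the 51 of these genes called by edgeR, 44 and 45 were not called in the same direction on the 2 TPM scales, and 3 on rescaled TPM (MST1R at an adjusted p of 0.0858, RPS6KB1 at 0.127 and SNAI2 at 0.0754). RPS6KB1 was also lost with library totals (0.0839) and SNRNP70 with thinned counts (0.05003). PTBP2 passed with library totals (edgeR adjusted p 0.0443). Leaving out a library gave 2784 to 3645 genes, 4 to 5 regulators, 17 to 24 listed genes and a MUC1 log2 fold change of -2.62 to -2.41. With the replicate number as a block, 3158 genes passed (3136 of them shared), 4 regulators, 20 listed genes, and MUC1 was at -2.52; no regulator changed its call. Among the 10 regulators, ESRP1 had the fewest counts without DOX, at 148 to 166.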

Other observations

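Of the 94 other splicing genes listed, HNRNPH2, U2AF1, RBFOX1, KHDRBS2 and SRRM4 had 0 counts in all 6 libraries. The sequence of U2AF1 is repeated in the reference as U2AF1L5, which was also at 0, as were the readthrough genes RPL36A-HNRNPH2 and TMX2-CTNND1. CTNND1, which encodes p120-catenin and is a target of the ESRP proteins, had between 39 and 77 counts, while CDH1, whose protein binds p120-catenin, had between 751 and 1688. How the authors' counting treated reads in repeated or overlapping genes is not given in the sources used here, so these genes are given as listed and not as absent from the cells.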
